A study of Homo sapiens with 3 samples.

Results

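The dose step covered here is bufalin at 20 nM set against bufalin at 10 nM, both for 24 h, in LNCaP cells, an established prostate cancer line cultured in medium with fetal bovine serum. Total RNA of each dose was read on 1 Illumina bead array, so each dose is 1 sample with no replicate, and no test, p-value or standard error stands behind any difference below. The members are all probes that either of these 2 arrays detected, with 0.01 as the upper limit of the detection p-value. They number 15724 of the 47323 probes on the array: 13623 were detected at both doses, 989 at 20 nM only and 1112 at 10 nM only. The study also holds 1 array of cells given the vehicle, ethanol, which entered no step here. Both groups therefore carry bufalin, and a difference says only how the cells at 20 nM stood relative to cells at 10 nM.

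Bufalin is a cardiac steroid of toad venom that binds the Na,K-ATPase, the pump that exports sodium and imports potassium at the cost of ATP. Human pumps are sensitive to such steroids. When the pump is blocked, cell sodium and then calcium rise and cell potassium falls, and both protein synthesis and kinase signalling are known to respond to this. LNCaP cells respond to androgen, carry an intact p53 pathway and express the luminal keratins of prostate epithelium, which makes androgen-responsive genes, p53 targets and cell cycle genes natural groups to read in them.

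Intensity is the brightness of a probe on the array's linear scale as deposited, and its lowest values of 93.1 at 20 nM and 93.3 at 10 nM show that it still holds background. Its median over all probes was 122 at 20 nM and 120.1 at 10 nM, and the highest values were 25114 and 24412 at the same doses. A difference is given as log2 of the 20 nM level minus log2 of the 10 nM level, or as a fold, after the fitted background of 115.8 at 20 nM and 113.6 at 10 nM had been removed, an offset of 16 added and both arrays set to the same distribution. The folds of dim probes are therefore larger than the quotient of the printed intensities. A positive log2 value means a higher level at 20 nM, and a probe is counted as higher or lower when it lies at least 2-fold, or 1 log2 unit, away from its 10 nM level. At the detection limit, 188 member probes had a lowest p-value of 0.00909 and a median log2 difference of -0.32, with values of -0.93 to 0.94. The 44 probes just outside it, at 0.0104, had a median of -0.39.

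Most transcripts stood close together at the 2 doses. Over all member probes the median log2 difference was 0.02, the middle 50% lay between -0.33 and 0.34 and 93.8% lay within 2-fold, and the log2 levels at the 2 doses had a Pearson correlation of 0.970 over the 15724 probes, which share their arrays. At least 2-fold higher at 20 nM were 406 probes (2.58%), and 569 (3.62%) were at least 2-fold lower. The 4-fold mark was passed by 12 probes in each direction. Of the 989 probes detected at 20 nM only, 25 were at least 2-fold higher even against the limit that the other array allows, and 42 of the 1112 detected at 10 nM only were lower by that measure. The share past 2-fold varied with brightness: in the dimmest 20% of member probes 3.18% were higher and 4.61% lower, and in the brightest 20% the shares were 0.763% and 1.59%.

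Gene symbols could be given to 10296 member probes (65.5%), which stand for 8195 genes. Each gene is represented by its brightest member probe. At 20 nM 228 of them (2.78%) stood at least 2-fold higher and 397 (4.84%) at least 2-fold lower, with a median log2 difference of -0.03 over all of them. These 2 percentages are the background for every gene group below. The gene lists were chosen with earlier results of these data known. Their counts and medians therefore describe the listed genes and are not a test of the groups. Without background correction 39 were higher and 80 lower, so counts in the groups are smaller in that setting. Where a gene had several member probes, as 1792 did, their log2 differences had a pooled SD of 0.31, which describes probes and not cultures. Of the 132 genes past 2-fold with several probes, 123 had every other probe on the same side of zero and 55 had every other probe past 2-fold as well.

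**Figure D1:**
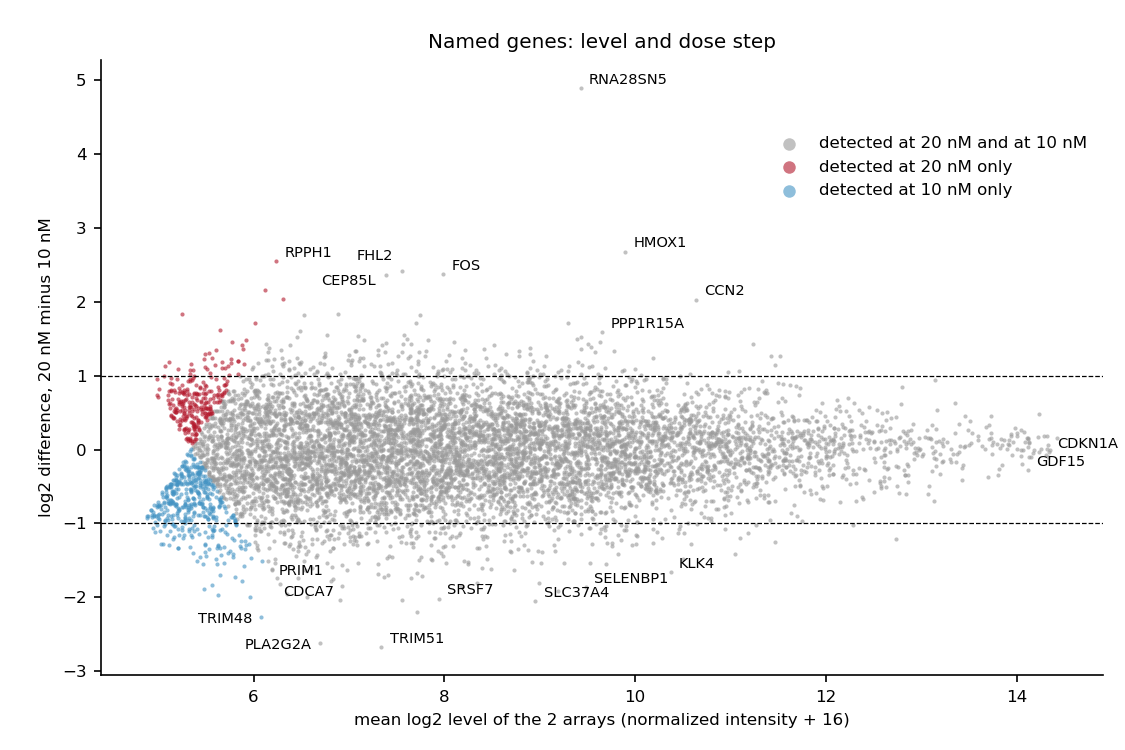
Log2 difference between 20 nM and 10 nM (y axis) against the mean log2 level over the 2 arrays (x axis, normalized intensity with the offset of 16) for 8195 named genes. Grey points were detected at both doses, red points at 20 nM only and blue points at 10 nM only, and the dashed lines mark 2-fold. RNA28SN5 and HMOX1 stand above the cloud, TRIM51 and PLA2G2A below it, and CDKN1A and GDF15 lie near zero at its bright end.

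The protein-coding gene farthest above its 10 nM level was HMOX1, whose enzyme breaks down heme. Its probe ILMN_1800512 had an intensity of 2520.2 at 20 nM and 482 at 10 nM, a 6.4-fold higher level (log2 2.68). FHL2, which encodes a LIM-domain partner of nuclear receptors and of the actin-regulated factor SRF, had 527 at 20 nM and 183 at 10 nM and was 5.35-fold higher. Its other member probe was detected at 20 nM only. The log2 difference of 2.61 from that probe is taken against an undetected level and is not a bound. FOS, a component of the AP-1 transcription factor, had 671 at 20 nM and 213 at 10 nM, a 5.19-fold step. CEP85L, a centrosomal protein gene, reached 471 at 20 nM and 175 at 10 nM and was 5.14-fold higher, with 2.24 on the log2 scale from its other probe. CCN2, which encodes a matrix protein also called CTGF, was brighter than FHL2, FOS and CEP85L, with 3337 at 20 nM and 887 at 10 nM, and was 4.08-fold higher. Its other probe gave the log2 difference 2.04 beside 2.03.

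Further down this side stood transcription factor genes and stress genes. PPP1R15A, whose product directs the dephosphorylation of the translation factor eIF2-alpha, had 1506 at 20 nM and 569 at 10 nM and was 3.02-fold higher. ZNF143, a zinc finger activator of small nuclear RNA genes and of many protein-coding genes, had 1234 at 20 nM and 454 at 10 nM and was 3.27-fold higher. CDIP1, a p53-responsive gene of cell death, was 3.52-fold higher, with 494 at 20 nM and 216 at 10 nM. GPNMB, a glycoprotein of lysosomes and melanosomes, was 3.28-fold higher by its brighter probe and had a log2 difference of 0.95 by the other. The repressor gene HIC2, the epidermal differentiation factor gene ZNF750, ZNF79 and TMEM88 were 3.56-, 3.54-, 3.05- and 2.94-fold higher, with intensities of 252 to 317 at 20 nM and 149 to 164 at 10 nM.

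On the lower side, TRIM51, a member of a primate TRIM gene cluster, had 162 at 20 nM and 512 at 10 nM and was 6.37-fold lower. PLA2G2A, a secreted phospholipase gene, had 141 at 20 nM and 362 at 10 nM, a 6.12-fold lower level. RTKN, the rhotekin gene, had 194 at 20 nM and 555 at 10 nM and was 4.6-fold lower. SLC37A4, the glucose-6-phosphate transporter gene, had 336 at 20 nM and 1103 at 10 nM and was 4.14-fold lower. The splicing factor gene SRSF7 had 219 at 20 nM and 599 at 10 nM, a 4.05-fold lower level.

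Several of the leading lower genes have known roles in prostate or in heme and chromatin biology. TMEFF2, a transmembrane protein abundant in prostate, had 393 at 20 nM and 1236 at 10 nM and was 3.77-fold lower. SELENBP1, a methanethiol oxidase gene, had 468 at 20 nM and 1458 at 10 nM and was 3.63-fold lower. CPOX, an enzyme of heme synthesis, was 4-fold lower, with 146 at 20 nM and 291 at 10 nM. PRMT6, an arginine methyltransferase of histone H3, was 3.6-fold lower, and its other probe had a log2 difference of -1.62. CDCA7, a MYC-responsive gene of the cell cycle, had 162 at 20 nM and 335 at 10 nM and was 3.58-fold lower. EPM2AIP1, TAOK3, YDJC, GBA2 and MSRB2 were 4.12-, 4.1-, 3.86-, 3.52- and 3.51-fold lower.

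Genes detected on 1 of the 2 arrays have only a bound. On the array that did not detect the gene, its level was taken as its own value or as the lowest level among detected probes there, whichever was higher, and the fold from the other array is then written as at least so many fold. Detected at 20 nM only, RPPH1, the RNA of ribonuclease P, was at least 4.55-fold higher (278 at 20 nM and 129 at 10 nM), KRTAP19-1 at least 4.01-fold and the hepatic lectin gene ASGR1 at least 3.65-fold. CD14, BASP1 and ZNF432 were at least 2.93-, 2.53- and 2.41-fold higher. Detected at 10 nM only, TRIM48 was at least 3.62-fold lower (129.7 at 20 nM and 250.3 at 10 nM), the elongation factor gene TCEA2 at least 3.05-fold and JMJD4 at least 2.82-fold. The epoxygenase gene CYP2J2, the kinase gene EEF2K and the ubiquitin protease gene USP4 were at least 2.68-, 2.57- and 2.52-fold lower. Unless stated, counts past 2-fold use values and not bounds, so they include genes detected on 1 array only. Among named genes these are 38 higher and 95 lower ones, of which 15 and 28 pass 2-fold by bound.

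**Figure D2:**
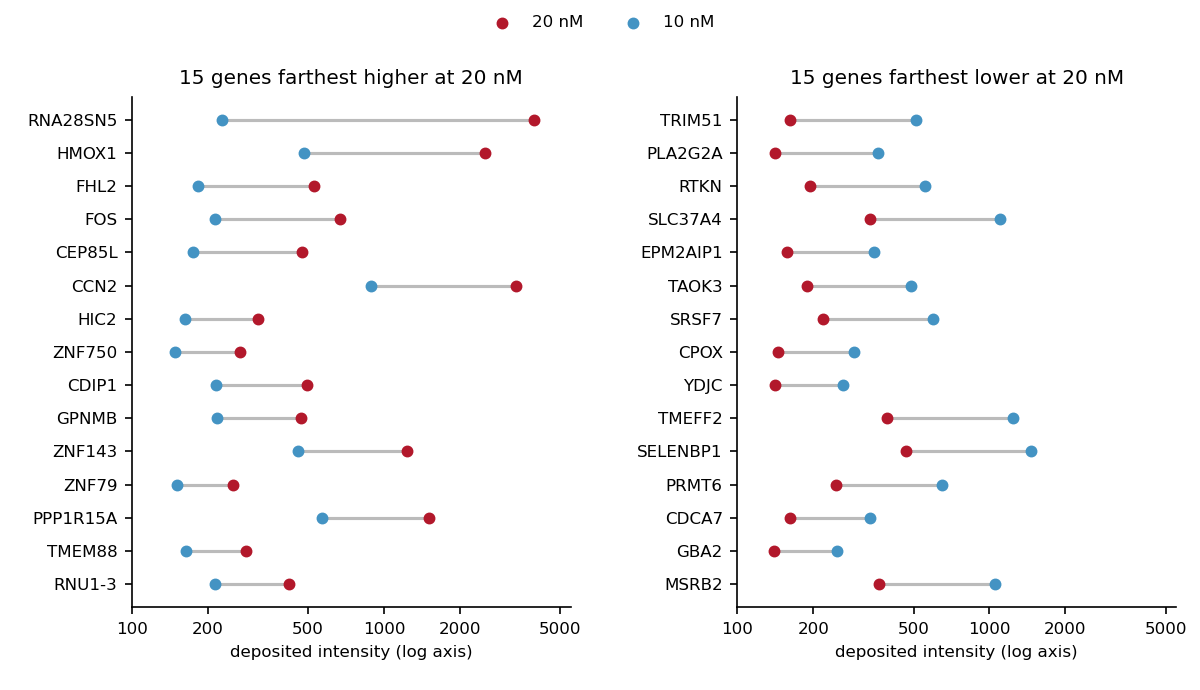
Deposited intensity on a log axis at 20 nM (red) and 10 nM (blue) for the 15 named genes farthest higher (left) and farthest lower (right) at 20 nM among genes detected on both arrays, ordered by their log2 difference. HMOX1, CCN2, ZNF143 and PPP1R15A are bright among the higher genes, and SLC37A4, TMEFF2, SELENBP1 and MSRB2 among the lower ones.

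Promoters of 6 genes are shown as examples from groups described below: FHL2 and CCN2 for the actin and TEAD targets, FOS for the immediate early genes, PPP1R15A for the stress genes, and CDT1 and MCM2 for the replication genes. Each window is RefSeq sequence of build GRCh38.p14, read 5′ to 3′ along the gene, from 250 bases before the annotated start to 50 bases after it. Capitals mark matches, on either strand, to the TATA box (TATAAA), the cyclic AMP response element (TGACGTCA), the TEAD site (GGAATG), the E2F site (TTTNGCGC) and the CArG box of SRF. A match is a description of these letters and not evidence that a factor was bound.
FHL2 (chr2:105438464-105438763, minus strand): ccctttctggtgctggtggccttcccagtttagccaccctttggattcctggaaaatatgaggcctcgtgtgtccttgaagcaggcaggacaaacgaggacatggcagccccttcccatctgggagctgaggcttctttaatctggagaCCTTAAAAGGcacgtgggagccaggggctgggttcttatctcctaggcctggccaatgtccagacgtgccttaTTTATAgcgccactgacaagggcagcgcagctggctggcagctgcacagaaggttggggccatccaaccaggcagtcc
CCN2 (chr6:131951323-131951622, minus strand): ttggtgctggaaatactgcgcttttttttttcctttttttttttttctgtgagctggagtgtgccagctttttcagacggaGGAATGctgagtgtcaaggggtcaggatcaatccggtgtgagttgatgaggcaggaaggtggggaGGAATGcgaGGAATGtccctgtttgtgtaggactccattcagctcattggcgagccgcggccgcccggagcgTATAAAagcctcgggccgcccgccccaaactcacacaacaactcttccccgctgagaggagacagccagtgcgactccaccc
FOS (chr14:75278578-75278877, plus strand): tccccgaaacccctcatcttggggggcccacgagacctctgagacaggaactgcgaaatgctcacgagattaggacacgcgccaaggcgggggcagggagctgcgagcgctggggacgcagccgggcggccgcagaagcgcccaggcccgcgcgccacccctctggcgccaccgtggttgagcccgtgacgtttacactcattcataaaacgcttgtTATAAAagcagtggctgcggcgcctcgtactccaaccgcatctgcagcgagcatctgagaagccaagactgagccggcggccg
PPP1R15A (chr19:48872171-48872470, plus strand): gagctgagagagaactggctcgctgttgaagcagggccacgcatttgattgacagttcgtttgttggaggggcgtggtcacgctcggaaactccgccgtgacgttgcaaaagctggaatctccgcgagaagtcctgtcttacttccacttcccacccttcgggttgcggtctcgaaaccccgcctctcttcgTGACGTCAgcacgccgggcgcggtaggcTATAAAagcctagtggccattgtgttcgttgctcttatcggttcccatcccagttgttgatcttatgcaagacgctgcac
CDT1 (chr16:88803539-88803838, plus strand): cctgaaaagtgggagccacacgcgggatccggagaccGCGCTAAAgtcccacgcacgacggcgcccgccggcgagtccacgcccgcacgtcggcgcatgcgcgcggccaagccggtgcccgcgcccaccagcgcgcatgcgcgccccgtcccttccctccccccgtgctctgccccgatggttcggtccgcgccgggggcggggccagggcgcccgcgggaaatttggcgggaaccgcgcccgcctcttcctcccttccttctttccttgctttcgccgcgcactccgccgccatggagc
MCM2 (chr3:127598161-127598460, plus strand): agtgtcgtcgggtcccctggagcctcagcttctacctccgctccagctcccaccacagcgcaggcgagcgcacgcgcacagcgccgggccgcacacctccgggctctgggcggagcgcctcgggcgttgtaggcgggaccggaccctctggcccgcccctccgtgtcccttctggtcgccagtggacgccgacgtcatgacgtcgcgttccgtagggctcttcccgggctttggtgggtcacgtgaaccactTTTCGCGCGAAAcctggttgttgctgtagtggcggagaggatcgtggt
In FHL2 the first block of capitals is a CArG box from -101 to -92 and the second a TATA box on the reverse strand from -28 to -23, counted from the annotated start. CCN2 has 3 matches to the TEAD letters, beginning at -169, -104 and -95, and a TATA box at -32. FOS has a TATA box at -33, and its known serum response element lies upstream of this window. PPP1R15A has a cyclic AMP response element at -58 and a TATA box at -30. CDT1 has an E2F match on the reverse strand at -213, and MCM2 has overlapping E2F matches on opposite strands, at 3 and 7 bases from the start.

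Immediate early genes are switched on without new protein synthesis, and many of them encode transcription factors. As a group they stood higher at 20 nM. Of 23 members 10 were at least 2-fold higher, 1 was lower and 12 passed neither mark. Their median log2 difference was 0.83, beside -0.03 over all named genes. After FOS came IER5, with 1297 at 20 nM and 563 at 10 nM (2.61-fold), and JUNB, another AP-1 subunit, with 429 at 20 nM and 237 at 10 nM (2.49-fold). ATF3, a stress-induced partner of AP-1 proteins, was already bright at 10 nM and had 4379 at 20 nM and 2007 at 10 nM, 2.2-fold higher. EGR1, KLF4, MAFF, KLF6, BHLHE40 and TIPARP were 2.32-, 2.42-, 2.41-, 2.1-, 2.17- and 2.04-fold higher. Other members lay between the marks: JUN had a log2 difference of 0.83, JUND 0.04, ZFP36 -0.16 and DUSP1 0.52. MYC was the 1 lower member, with 789.9 at 20 nM and 1638 at 10 nM (2.22-fold lower) and a log2 difference of -1.34 from its other probe. Without background correction 3 members were higher and 1 lower.

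Among targets of YAP/TEAD and SRF, which respond to the actin cytoskeleton and cell tension, 6 of 21 members were higher, 0 lower and 15 between the marks, and their median was 0.69. Beside FHL2 and CCN2 these were CCN1, LATS2, SDC4 and ANKRD1. CCN1, a matricellular protein gene and the brightest of them at 20 nM, had 4742 at 20 nM and 1993 at 10 nM and was 2.42-fold higher. LATS2, a kinase that restrains YAP, was 2.4-fold higher, with 261 at 20 nM and 170.1 at 10 nM. The syndecan gene SDC4 and the nuclear ankyrin gene ANKRD1 were 2.1- and 2.04-fold higher. SRF itself and ZYX, a focal adhesion gene, had log2 differences of 0.88 and 0.88. Structural actin genes lay near zero, with ACTB at 0.07, ACTG1 at 0.19 and ACTA2 at -0.21. Without background correction 3 of the 21 were higher.

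p53 targets had 11 of 33 members higher, 0 lower and 22 between the marks. Their median was 0.84, and 31 of the 33 had a positive difference. Members with roles in DNA repair were among the higher ones. DDB2, a damage recognition factor, had 471 at 20 nM and 238 at 10 nM (2.78-fold). XPC, which starts nucleotide excision repair, had 1898 at 20 nM and 858 at 10 nM (2.35-fold), and the translesion polymerase gene POLH was 2.33-fold higher. SERTAD1 was 2.87-fold higher, with 1269 at 20 nM and 511 at 10 nM, PLK2 2.71-fold and AEN, an exonuclease gene of apoptosis, 2.7-fold, with 4116 at 20 nM and 1548 at 10 nM. The negative regulators of p53 also stood higher: MDM2 2.25-fold and PPM1D 2.28-fold. FBXW7, TIGAR and SESN1 were 2.4-, 2.2- and 2.18-fold higher. Of other members with roles in cell death, log2 differences were 0.53 for BBC3, 0.44 for FAS, 0.21 for BAX and 0.12 for PMAIP1.

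The best known arrest gene of the pathway, CDKN1A, which encodes p21, was among the brightest transcripts at both doses and stood at nearly the same level by its brighter probe: 20842 at 20 nM and 20838 at 10 nM, a log2 difference of -0.03. That probe lay at 83.0% of the highest intensity at 20 nM and at 85.4% of it at 10 nM, so it was close to the upper end of the scale. Its dimmer probe had a log2 difference of 1.07. GDF15, a stress cytokine gene, had 16352 at 20 nM and 19314 at 10 nM, a difference of -0.27. In all, 32 named genes lay above 70% of the highest intensity on an array and 0 of them were past 2-fold. Without background correction 6 of the 33 p53 targets were higher, and under median scaling 15.

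Growth arrest genes had 0 of 11 members past 2-fold in either direction, yet 9 of them were above zero and the median was 0.65. The 3 GADD45 genes, stress sensors that bind cell cycle kinases and PCNA, lay just under the 2-fold mark. GADD45B had 1866 at 20 nM and 989 at 10 nM (log2 0.97), GADD45A had 3731 at 20 nM and 1968 at 10 nM (0.93) and GADD45G had 738 at 20 nM and 448 at 10 nM (0.91). The dimmer probe of GADD45A gave 1.33. CDKN1B, which encodes the p27 cyclin kinase inhibitor, had a log2 difference of 0.76 by its brighter probe and 0.31 by the other. MAP kinase feedback genes gave 2 higher and 0 lower of 19, and a median of 0.35. The higher ones were the phosphatase gene DUSP8 (2.22-fold) and PHLDA1 (2.02-fold), while DUSP5 and the EGFR inhibitor gene ERRFI1 had log2 differences of 0.91 and 0.87.

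Circadian clock genes had 4 of 12 members higher, 0 lower and 8 between the marks, and a median of 0.84. The output factor gene TEF had 402 at 20 nM and 217 at 10 nM (2.68-fold). CRY1, a repressor of the clock, had 1599.7 at 20 nM and 805 at 10 nM (2.13-fold) and a log2 difference of 1.26 from its other probe. BHLHE40, a repressor counted with the immediate early genes too, and BMAL1, the activator, were 2.17- and 2.04-fold higher. NR1D2 and CRY2 lay just under the mark, with log2 differences of 0.99 and 0.97. DBP and CSNK1E were on the other side of zero, at -0.24 and -0.33. Without background correction 0 of the 12 passed 2-fold, although the median was still positive at 0.53.

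Genes of vasoactive peptides and injury-response surface proteins had 4 of 11 members higher, 1 lower and 6 between the marks, and a median of 0.87. PLAUR, the urokinase receptor gene, had 259 at 20 nM and 170.0 at 10 nM (2.37-fold), and CD55, a complement regulator, had 218 at 20 nM and 151 at 10 nM (2.36-fold). ADM, the adrenomedullin gene, had 1306 at 20 nM and 663 at 10 nM (2.16-fold), and SDC4 is the fourth. EDN1, the endothelin gene, had a log2 difference of 0.87. ITGA5, the fibronectin receptor subunit gene, was detected at 10 nM only (118 at 20 nM and 187 at 10 nM) and was at least 2.1-fold lower at 20 nM. Without background correction 0 of the 11 passed 2-fold in either direction.

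Integrated stress and unfolded protein response genes split. The 3 of 26 members that were higher, with 0 lower, were PPP1R15A, ATF3 and CREBRF, a regulator of the unfolded protein response with 1225 at 20 nM and 507 at 10 nM (2.81-fold) and 1.79 on the log2 scale from its other probe. The list's median was 0.07. ATF4 and DDIT3, the transcription factors of the pathway, had log2 differences of 0.46 and 0.47. The amino acid genes ASNS, PSAT1 and CHAC1 lay at 0.06, 0.06 and 0.04, and TRIB3 at -0.33. Chaperones of the endoplasmic reticulum lay below zero, with HSPA5 at -0.26 and HSP90B1 at -0.46.

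Oxidative stress and heme genes lay on both sides, with 1 of 25 members higher, 2 lower and a median of 0.13. HMOX1 was the higher one. CPOX and PPOX, which act one after the other in heme synthesis, were the lower ones, and PPOX had 181 at 20 nM and 307 at 10 nM (2.41-fold lower). FECH, which completes heme, had a log2 difference of -0.51, and UROD, an earlier step, -0.11. Other targets of the antioxidant factor NRF2 lay nearer zero than HMOX1: NQO1 was at 0.09, TXNRD1 at 0.22, SRXN1 at 0.21 and SLC7A11 at 0.34. GCLM, a subunit of glutathione synthesis, was at 0.90 while its partner GCLC was at -0.30. Without background correction CPOX and PPOX were within 2-fold.

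Autophagy and lysosome genes had 2 of 33 members higher, 0 lower and 28 above zero, and a median of 0.38. MAP1LC3B, the autophagosome marker LC3B, had 941 at 20 nM and 510.4 at 10 nM (2.06-fold), and FNIP1, a partner of folliculin, had 549 at 20 nM and 326 at 10 nM (2.04-fold). FLCN, the folliculin gene, was at 0.95 and GABARAP at 0.95, while the cathepsin genes CTSB, CTSD and CTSL were at -0.35, -0.29 and -0.65. Histone genes that are read outside S phase or give polyadenylated transcripts had 3 of 19 members higher, 0 lower and a median of 0.44. All 3 encode H2B: H2BC5 with 1305 at 20 nM and 587 at 10 nM (2.49-fold), H2BC21 with 2283 at 20 nM and 1165 at 10 nM (2.04-fold) and H2BC11 (2.06-fold). These H2B genes are close copies, and their probes may share transcripts.

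Chromatin and transcription machinery showed members on both sides. Of 67 chromatin modifier genes 6 were higher and 3 lower, and the median was 0.07. The acetyltransferase genes KAT6A (794 at 20 nM and 383 at 10 nM), EP300 and CREBBP were 2.52-, 2.26- and 2.02-fold higher, as were the remodeller gene CHD2 (2.09-fold) and the demethylase gene KDM3A (2.01-fold). SETD1B, detected at 20 nM only, was at least 2.38-fold higher. The lower ones were PRMT6, PRMT3 (2.25-fold) and BRD7 (2.1-fold). Without background correction 1 was higher and 1 lower. Zinc finger genes with ZNF symbols, most of them repressors with KRAB domains, had 16 of 220 members higher, 7 lower and a median of 0.15, and without background correction 1 was higher and 0 lower. POLR2A, the large subunit of RNA polymerase II, was at 0.78, and the Mediator gene MED13L was 2.31-fold higher. The polymerase III subunit genes POLR3G and POLR3B were 2.42- and 2.09-fold lower.

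**Figure D3:**
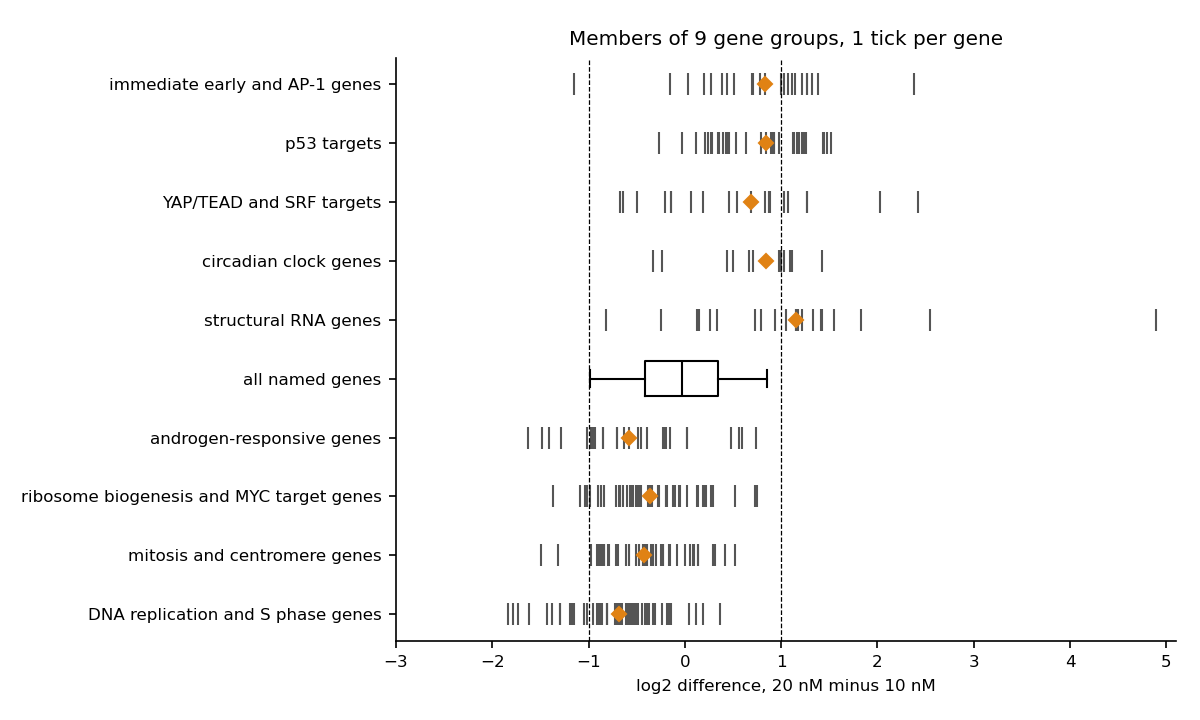
Log2 difference between 20 nM and 10 nM (x axis) for the members of 9 gene groups, 1 tick per gene, with the group median as an orange diamond; the box shows the quartiles of all 8195 named genes with whiskers over the middle 90%, and the dashed lines mark 2-fold. Medians lie at 0.83 for immediate early genes and 0.84 for p53 targets, and at -0.68 for replication genes and -0.59 for androgen-responsive genes.

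Structural RNAs were looked at after their values had been seen, because RNA28SN5 led the whole list. By RefSeq biotype, 21 named genes encode ribosomal, small nuclear, Y, vault, signal recognition particle, ribonuclease P or MRP, or telomerase RNA. Of these 12 were higher, 0 lower and 9 between the marks, and their median was 1.16. The RNA28SN5 probe, for 28S ribosomal RNA, had 3948 at 20 nM and 228 at 10 nM, a 29.7-fold step, but the gene's other probe had a log2 difference of only 0.73. RNA5S9, for 5S ribosomal RNA, had 1292 at 20 nM and 550.0 at 10 nM (2.69-fold), while the probe for 18S RNA, RNA18SN5, was at 0.14. The ribosomal RNA copies are near-identical, so a probe speaks for the repeat and not for 1 copy.

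Of 10 genes of the small nuclear RNA biotype 7 were higher and 0 lower. U1 genes gave RNU1-1 with 539 at 20 nM and 301 at 10 nM (2.25-fold), RNU1-3 (2.92-fold), RNVU1-7 (2.67-fold) and RNVU1-18 (2.52-fold), which are close copies of each other. RNU6-1, for U6 RNA, was far brighter, with 13090.5 at 20 nM and 6419 at 10 nM, and lay just under the mark at 0.94. RNU6ATAC, of the minor spliceosome, was 2.32-fold higher, and RNU4-2, detected at 20 nM only, at least 2.22-fold. RN7SK, which holds the elongation kinase P-TEFb inactive, had 767 at 20 nM and 429 at 10 nM (2.07-fold) and 1.74 on the log2 scale from its other probe. RMRP was detected at 20 nM only and was at least 1.79-fold higher.

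Not every short RNA followed. RN7SL1, of the signal recognition particle, had 18759 at 20 nM and 15178 at 10 nM, close to the upper end of the scale, and lay at 0.27. RNY3 was at 0.13 while RNY5 was 2.23-fold higher, and SNAR-A1 was at -0.25. Among 57 small nucleolar and Cajal-body RNA genes 3 were higher and 0 lower, and the median was 0.16. The 3 higher are copies of U3 RNA, which guides the cleavage of ribosomal RNA: SNORD3D with 569.8 at 20 nM and 289 at 10 nM (2.55-fold), SNORD3C (2.56-fold) and SNORD3A (2.24-fold). The labels do not say how RNAs without a poly(A) tail were labelled. Without background correction 4 of the 21 structural RNA genes were higher.

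On the lower side, DNA replication genes had the lowest median of all lists with at least 10 members. Of 50 members 14 were lower at 20 nM, 0 were higher and 36 lay between the marks. The median was -0.68, and 46 lay below zero. Genes that load and start the replicative helicase were among the lower ones. CDC45 had 299.5 at 20 nM and 733 at 10 nM (3.07-fold lower) and GINS3 had 147 at 20 nM and 264 at 10 nM (3.33-fold lower). CDT1, the licensing factor whose promoter is printed above, was 2.7-fold lower, and the helicase genes MCM2, MCM3, MCM4 and MCM10 were 2.27-, 2.46-, 2.29- and 2.45-fold lower. MCM2 had 219 at 20 nM and 384 at 10 nM, and MCM3 had 642 at 20 nM and 1447 at 10 nM. On the log2 scale the other probe of MCM3 gave -2.04 and that of MCM4 -0.62. PRIM1, the primase that lays down the first RNA primer, had 158 at 20 nM and 312 at 10 nM (3.44-fold lower), with -1.49 on the log2 scale from its other probe.

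Polymerase and chromatin assembly genes of S phase stood lower too: POLA1, POLE2, RFC3 and CHAF1B were 2.03-, 2.07-, 2.21- and 2.25-fold lower, and UHRF1, which recruits the maintenance DNA methyltransferase, 2.6-fold. Other members lay much nearer their 10 nM level. PCNA, the sliding clamp and also a p53 target, had 3259 at 20 nM and 3517 at 10 nM (log2 -0.14), and its other probe gave -0.68. TYMS was at -0.17, RRM1 at -0.31, E2F1 at 0.11 and LIG1 at 0.04. Without background correction 3 of the 50 were lower, and the median was -0.46.

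Mitosis and centromere genes had a median of -0.42, nearer zero than that of the replication genes, and 41 of 51 members lay below zero. Past 2-fold, 2 (3.92%) were lower and 0 higher, which is no more than the 4.84% lower over all named genes. AURKB, the kinase of the chromosomal passenger complex, had 236 at 20 nM and 499 at 10 nM (2.81-fold lower), and the kinesin gene KIF20A had 226 at 20 nM and 427 at 10 nM (2.49-fold lower). CCNA2, the cyclin of S phase and early mitosis, was at -0.98, the centromere histone gene CENPA at -0.92 and PLK1 at -0.70. CCNB1, the mitotic cyclin, had 551 at 20 nM and 643 at 10 nM (log2 -0.23), and TPX2, NDC80 and MAD2L1 lay at 0.09, 0.13 and 0.05. Among cyclins, their kinases and E2F-RB genes 2 of 28 were lower and 0 higher, beside a median of 0.07. The lower ones were CDK4, the G1 kinase, with 1089 at 20 nM and 2463 at 10 nM (2.42-fold lower), and the pocket protein gene RBL2 (2.48-fold lower). CCND3 was at -0.97 and CCND1 at -0.74. Of 39 DNA repair genes 4 were lower and 1 higher, and the median was -0.39. FANCG, of the crosslink repair complex, had 188 at 20 nM and 377 at 10 nM (2.93-fold lower). BRCA1 was also among the 4 lower, the glycosylase gene NTHL1 was 2.08-fold lower and RAD54B 2.02-fold. The higher one, XPC, is also a p53 target.

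Androgen-responsive genes had 5 of 27 members lower, 0 higher and 22 between the marks, and a median of -0.59. SPDEF, a prostate ETS factor, had 333 at 20 nM and 845 at 10 nM (3.1-fold lower), and SLC45A3, the prostein gene, had 646 at 20 nM and 1565 at 10 nM (2.66-fold lower). EAF2 had 144 at 20 nM and 226 at 10 nM (2.79-fold lower). C1orf116 was 2.45-fold lower by its brighter probe, but the other probe lay at -0.06. KLK2 was detected at 10 nM only and was at least 1.83-fold lower. KLK3, the gene for prostate-specific antigen, was dim at both doses, with 187 at 20 nM and 238 at 10 nM (log2 -0.59). FKBP5, also a glucocorticoid target, was at -0.94, and TMPRSS2, ELL2 and ZBTB10 were on the other side of zero at 0.59, 0.56 and 0.74. Without background correction 3 of the 27 were lower.

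The labelled cell type was checked with the same arrays. Of 20 luminal prostate markers 16 were members, and their summed normalized level was 21672 at 20 nM and 24064 at 10 nM. At 20 nM 4 of the 16 were lower and 0 higher, and the median was -0.29. The lower ones were KLK4, with 844 at 20 nM and 2426 at 10 nM (3.15-fold lower), the transcription factor gene CREB3L4 (3.07-fold lower), SPDEF, and STEAP2 (2.02-fold lower, and -1.30 on the log2 scale by its other probe). The keratin genes KRT18 and KRT8 were at 0.33 and -0.62, and FOXA1 and HOXB13 at -0.26 and -0.32. None of 11 basal epithelial markers was a member (0 of 11). Neuroendocrine markers had 2 of 11 members, summed at 278 at 20 nM and 486 at 10 nM, stromal markers 3 of 12 (2124 and 2382 at the same doses), leukocyte markers 3 of 12 (940.1 and 608) and the endothelial markers 1 of 8 (12.2 and 33.1). The leukocyte sum is made of HLA-DRA (678 at 20 nM and 498 at 10 nM), CD68 (377 at 20 nM and 333 at 10 nM) and CD14 (214 at 20 nM and 134 at 10 nM), and its part in the results was not tested. In a bulk sample fewer cells of a kind and less RNA per cell cannot be told apart.

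Ribosome biogenesis and MYC target genes had 4 of 49 members lower, 0 higher and a median of -0.36. BOP1, of the large subunit processing complex, had 407 at 20 nM and 911 at 10 nM (2.59-fold lower). MRTO4 and PPAN, also large subunit assembly factors, were 2.13- and 2.03-fold lower. RRP9 was detected at 10 nM only. It is counted by its value, and by its bound it was only at least 1.27-fold lower. FBL, the methyltransferase of ribosomal RNA, was at -0.99, NCL at -0.45 and UBTF, a factor of RNA polymerase I, at 0.75. RNA exosome genes had 1 of 13 lower, 0 higher and a median of -0.43: EXOSC2 had 157 at 20 nM and 255 at 10 nM (2.58-fold lower). Genes of tRNA modification and processing had 3 of 37 lower, 0 higher and a median of -0.20. METTL1 and WDR4, which together methylate tRNA, were 3.23- and 2.02-fold lower, and RPP40, a protein of ribonuclease P, had 383 at 20 nM and 850.1 at 10 nM (2.57-fold lower). Its RNA partner RPPH1 stood on the higher side, as given above.

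Translation and splicing lists held few members past 2-fold. Of 52 translation factor genes 1 was higher, EIF2AK3, the PERK kinase gene (2.3-fold), and 2 were lower, with a median of -0.09. EIF5A, which helps ribosomes past stalls, had 1461 at 20 nM and 2926 at 10 nM (2.1-fold lower), and EEF2K was the other. Of 27 tRNA synthetase genes QARS1 alone passed 2-fold, with 1557 at 20 nM and 3393 at 10 nM (2.3-fold lower), and the median was -0.29, with 21 of the 27 below zero. Of 78 splicing factor genes 4 were lower, 0 higher and the median was -0.00. Beside SRSF7 these were U2AF2 (2.39-fold lower, but -0.06 on the log2 scale by its other probe), SRSF3 (268 at 20 nM and 486 at 10 nM, 2.2-fold lower) and TRA2A (2.09-fold lower). SRSF3, SRSF7 and TRA2A are genes with poison exons, and which isoforms their probes read was not examined here.

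Metabolic lists differed in their medians. Genes of glycolysis, the pentose phosphate pathway and the TCA cycle had a median of -0.31. Of 43 members 2 (4.65%) were lower and 0 higher, near the 4.84% lower over all named genes. IDH1, the cytosolic isocitrate dehydrogenase, had 1087 at 20 nM and 2236 at 10 nM (2.19-fold lower), and ME2, malic enzyme, had 309 at 20 nM and 553 at 10 nM (2.09-fold lower). CS, citrate synthase, was at -0.96. Nucleotide and one-carbon genes had 4 of 35 lower, 0 higher and a median of -0.28. They were IMPDH1, of guanine nucleotide synthesis (2.37-fold lower, though its other probes lay at 0.69 and -0.08), SHMT1 (2.36-fold lower), and PFAS and ADSL of purine synthesis (2.25- and 2.12-fold lower). Oxidative phosphorylation genes had 0 of 55 past 2-fold in either direction and a median of 0.03. Among 22 sterol synthesis genes SQLE was 2.38-fold lower and MVD, detected at 20 nM only, at least 1.9-fold higher, with a median of -0.02.

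Protein folding and degradation lists held few called genes. Of 55 heat shock, DNAJ and chaperonin genes 2 were higher and 3 lower, beside a median of -0.07. DNAJB4 was 2.4-fold higher and HSP90AB1, the constitutive cytosolic HSP90, had 1049 at 20 nM and 2154 at 10 nM (2.18-fold lower). The heat-inducible HSPA1B was at 0.27. Proteasome genes had 0 of 36 past 2-fold and a median of -0.13. TRIM genes had 6 of 26 lower, 0 higher and a median of -0.22. Of these 6, TRIM51, TRIM48, TRIM49C, TRIM49D1 and TRIM49D2 lie on chromosome 11, and TRIM47 on chromosome 17. The TRIM49 genes among them are near-identical copies, so their probes may read the same transcripts and are not separate observations. At 20 nM against 10 nM the intensities were 126 against 192 for TRIM49D1, 129 against 189.7 for TRIM49C and 122 against 168 for TRIM49D2. Like TRIM48, these TRIM49 genes were detected at 10 nM only, and they are counted by their values and not by bounds. Whether the probes of TRIM51 and TRIM48, which are related genes, share transcripts with these was not examined. Without background correction 1 of the 26 was lower.

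Genes of the pump that bufalin binds, and of related transporters, lay close to their 10 nM levels. Of 12 sodium pump and cation transport genes 1 was higher, 0 were lower and the median was 0.01. ATP1B1, the beta subunit of the pump, was bright, with 7160.1 at 20 nM and 6734 at 10 nM (log2 0.01), and ATP1B3 was at 0.34. The higher gene was NFAT5, the osmotic stress factor, with 668 at 20 nM and 389.6 at 10 nM (2.03-fold) and 1.61 on the log2 scale from its other probe. Glucocorticoid-type response genes had 0 of 12 past 2-fold in either direction and a median of -0.06. NF-kappa-B factors and chemokines had 0 of 16 past 2-fold, with a median of 0.25: CCL20 had 2096 at 20 nM and 1096 at 10 nM (log2 0.99) and CXCL8 lay at 0.68, while CCL2 lay at -0.76.

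Of 12 genes often used as a constant reference, 2 were lower and 0 higher, and the median was -0.26. UBB, a ubiquitin gene, had 4688 at 20 nM and 10096 at 10 nM (2.31-fold lower) and TUBB had 1938 at 20 nM and 4376 at 10 nM (2.38-fold lower). GAPDH had 8722 at 20 nM and 10258 at 10 nM (log2 -0.33) and ACTB lay at 0.07. Cytosolic ribosomal protein genes had 1 of 59 lower, 0 higher and a median of -0.01, and 13 of them lay near the top of the range. The 1 lower was RPL29, with 580.3 at 20 nM and 1508 at 10 nM (2.92-fold lower) and -1.63 on the log2 scale from its other probe. Median scaling in place of quantile normalization moved that list's median to 0.14, beside 0.01 over all named genes. Mitochondrial ribosomal protein genes had a median of -0.22. Of 71 members 3 (4.23%) were lower and 0 higher, near the 4.84% lower over all named genes. MRPS26, MRPL17 and MRPL34 were 2.61-, 2.46- and 2.07-fold lower.

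**Figure D4:**
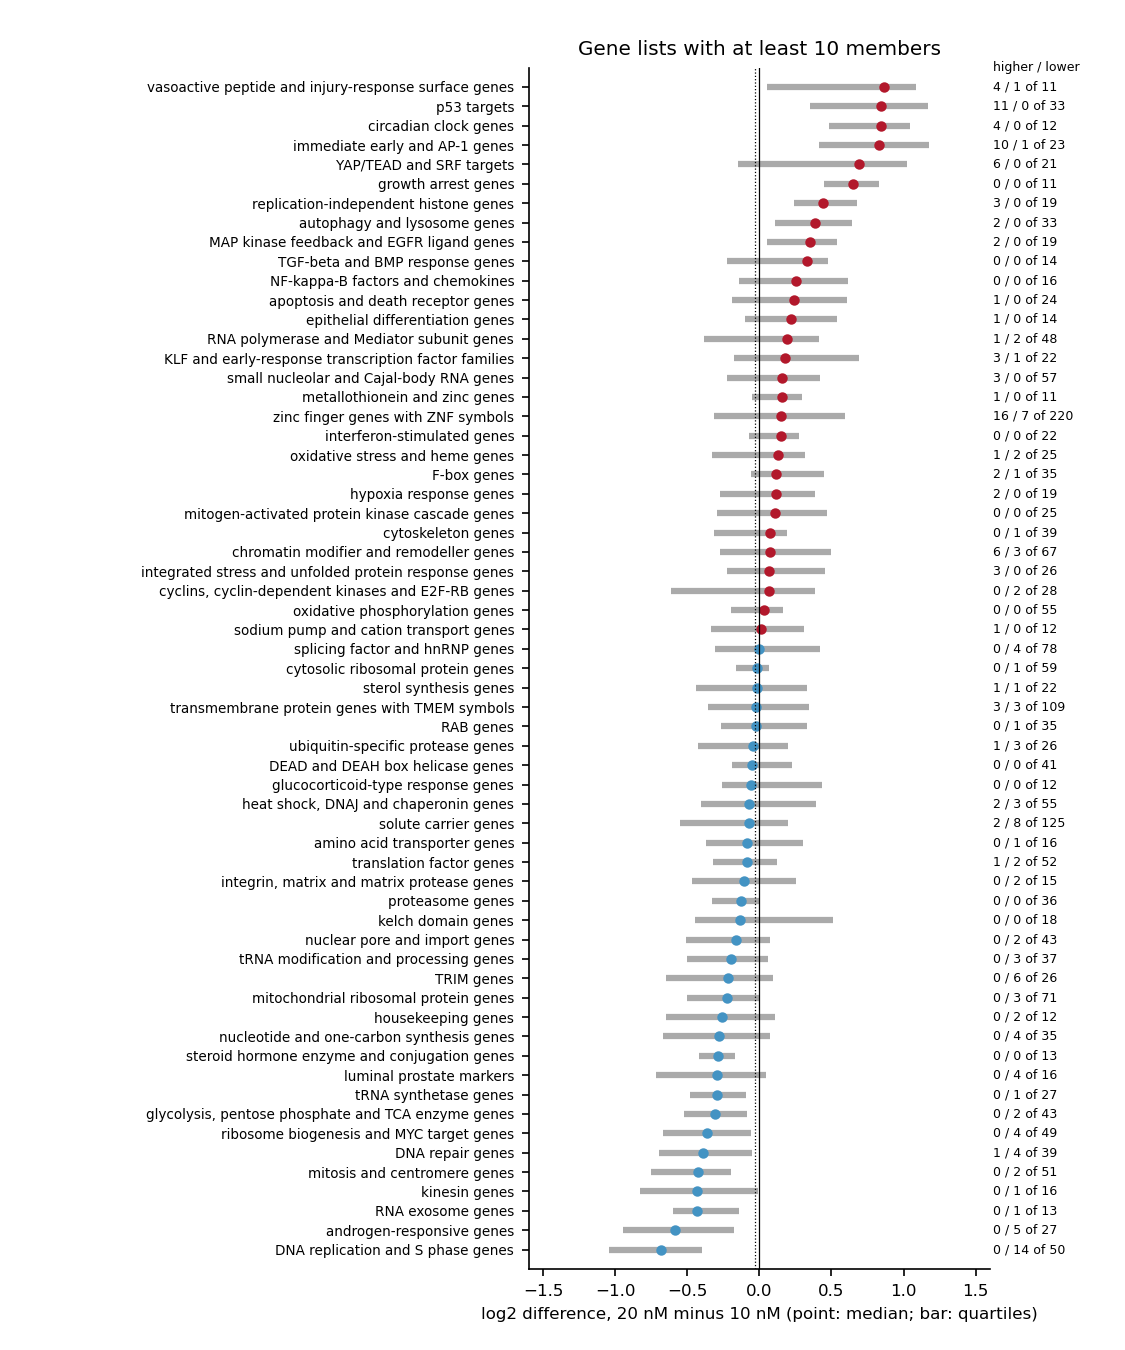
Median (point) and quartiles (bar) of the log2 difference between 20 nM and 10 nM for each gene list with at least 10 members, ordered by median, red above zero and blue below it. The dotted line is the median of all named genes, -0.03, and the figures on the right give members at least 2-fold higher, at least 2-fold lower and in all; replication genes (0 / 14 of 50) stand lowest, and p53 targets (11 / 0 of 33) are near the top.

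The dose step also differed with the genomic span of protein-coding genes, from RefSeq start to end. In 5 equal classes of span, the median log2 difference was -0.14 in the shortest (0.33 to 9.07 kb), then -0.09, -0.02, -0.03, and 0.09 in the longest (79.8 to 2220 kb). In the shortest class 7.48% were lower and 2.41% higher, and in the longest 3.36% were lower and 2.85% higher. Brightness moved with span as well, with a median mean log2 level of 8.30 in the shortest and 7.53 in the longest class, and its part was not tested. The order of the shortest and the longest class was the same under median scaling (-0.09 and 0.12), without background correction (-0.09 and 0.05) and with the deposited values (-0.10 and 0.03).

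**Figure D5:**
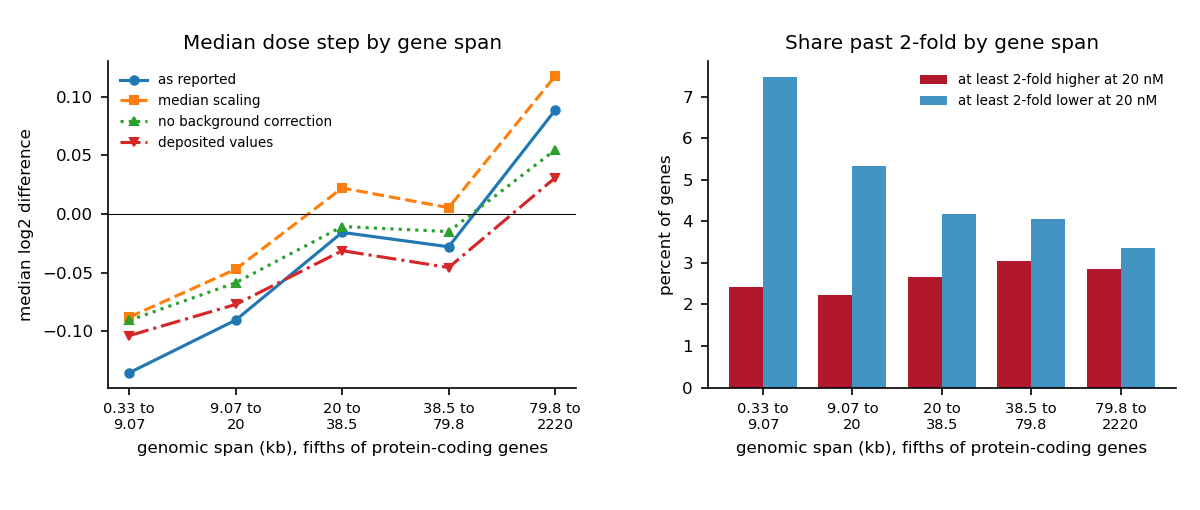
Left: median log2 difference between 20 nM and 10 nM for protein-coding genes in 5 equal classes of genomic span (x axis, kb), as reported and under 3 other processings. Right: percent of genes in each class at least 2-fold higher (red) and at least 2-fold lower (blue) at 20 nM; the lower share is 7.48% in the shortest class and 3.36% in the longest.

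Promoter windows of the same 300 bases were at hand for 176 of the 228 higher genes, 323 of the 397 lower genes and 6264 of the genes within 2-fold, and for 27305 genes in all. The TATA box (TATAAA, either strand) was in 11.9% of the higher, 5.26% of the lower and 5.51% of the genes within 2-fold, beside 12% of all promoters. The cyclic AMP response element TGACGTCA was in 7.39%, 3.1%, 3.48% and 1.98% of the same sets. A CArG box was in 2.27%, 0.31%, 1.09% and 1.29%, which is 4 higher genes and 1 lower gene. The NF-kappa-B site ran the other way, in 6.25% of the higher, 15.5% of the lower and 12.6% of the genes within 2-fold, beside 10.8% of all. For the AP-1 site TGANTCA the shares were 6.25%, 3.1%, 4.02% and 7.76%, and for the E2F site TTTNGCGC 3.41%, 3.72%, 3.46% and 1.83%.

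Read the other way, genes with a TATA box had a median log2 difference of 0.12 (383 genes) and those without one -0.04 (6380 genes). Genes with a cyclic AMP response element had 0.13 (241 genes), against -0.04 for the 6522 without. Genes with a CArG box had 0.14 (73 genes), against -0.03 without. Within lists, 14 of 45 replication gene promoters (31.1%) held the E2F site, and of the 16 promoters of YAP/TEAD and SRF targets 5 (31.2%) held the TEAD site GGAATG, 5 a CArG box and 5 the NF-kappa-B site. The TEAD site was in 9.09% of the higher, 10.5% of the lower and 10.6% of the genes within 2-fold, beside 14% of all promoters. Of p53 target promoters 3 of 27 (11.1%) held a p53 half-site, beside 6.54% of all promoters, and none of the immediate early promoters held an AP-1 site (0 of 19). The element TGACGTCA does not itself count as TGANTCA.

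Member probes without a gene symbol numbered 5428, of which 109 (2.01%) were higher and 93 (1.71%) lower. Among them ILMN_1821517 had 1404 at 20 nM and 6055 at 10 nM, a 4.67-fold lower level, and ILMN_3243644 had 4496 at 20 nM and 1208 at 10 nM, 3.86-fold higher. What these probes read is not known here. Named genes come from a smaller table that the authors had selected, so the 2 shares describe differently chosen probes.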

How the data were processed

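RNA of LNCaP cells treated for 24 h with bufalin at 20 nM or at 10 nM was read on 1 Illumina bead array per dose, with biotin labelling per the labels' protocols. The authors deposited a non-normalized probe intensity and a detection p-value for each of 47323 probes. The submitters' processing notes name BeadStudio 3.0, with its background setting not given in the sources used. Gene symbols came from a smaller deposited table of 13753 probes, whose 27506 intensities on the 2 arrays all equalled those of the larger table. How the authors chose those probes was not examined here. Probe annotation was updated through Entrez identifiers to RefSeq (GRCh38.p14), and 10947 identifiers were found.

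From the deposited intensity, background was fitted from the detection p-value with limma 3.58.1 in R 4.3.3 (normexp, offset 16) on these 2 arrays alone. They were quantile normalized and put on a log2 scale. The deposited values carried no log2 transform. The steps were tested on simulated data in which only probes well above background were changed, so calls in dim probes were not covered. With 1 array per dose no test was made, and the number of arrays limits the precision. Genes named were the 15 farthest in each direction among those detected on both arrays, 6 in each direction by bound among those detected on 1, up to 4 of each list and a panel of 17. Further members, the structural RNAs and the unnamed probes were chosen after their values were seen. The members and the gene lists were chosen with earlier results of these data known. Tables were made with Python 3.11.15, pandas 2.3.3 and numpy 2.4.6. Alternatives were no background correction, an offset of 50, median scaling, deposited values without normalization, detection on both arrays, a detection p-value limit of 0.05, thresholds of 1.5-fold and 3-fold, and the mean over a gene's probes.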

Additional observations from a re-analysis of the deposited data

How the results depend on the processing

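Counts depended on how background was handled. Among member probes, 406 were at least 2-fold higher and 569 lower at 20 nM. Without background correction these counts were 57 and 102, with an offset of 50 they were 141 and 221, and with the deposited values 52 and 105. Among named genes, with 228 higher and 397 lower, the same settings gave 39 and 80, 93 and 171, and 35 and 83. A threshold of 1.5-fold gave 1945 higher and 2050 lower probes and 1057 and 1349 genes, and 3-fold gave 33 and 62 probes and 19 and 44 genes. Median scaling, detection on both arrays, the mean over a gene's probes and bounds in place of values left the counts within 1.5 times. The use of bounds for probes was chosen after seeing the data. A p-value limit of 0.05 left the counts as they were, but it could hardly change them. The probes just outside the 0.01 limit had log2 differences of only -0.93 to 0.63. The share of higher among called genes, 36.5%, ranged from 29.7% to 43.9%, and among probes from 33.1% to 48.7% beside 41.6%. The sign was checked for the lists and for the genes picked by the naming rule above, many of them for their large differences. Of the 158 picked genes past 2-fold and the 32 lists with a median at least 0.2 from zero, 0 changed sign under the settings run for them. All these settings reprocess the same 2 arrays, so differences of this size could hardly change sign. The check therefore gives no support for the directions. The other called genes were not checked in this way. Dim probes carry the limit: in the dimmest 20% of named genes 51 were higher and 124 lower, and without background correction 1 and 0. No paired analysis was possible because each dose has 1 array. The spread between cultures is unknown, so no difference here has a replicate check.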
